A study of Mus musculus with 12 samples.

Results

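The 6 libraries of lumbar dorsal root ganglia collected at zeitgeber times (ZT, the hour counted from lights on) 14 and 20 were compared with the 6 collected at ZT2 and ZT8, with each time weighted equally, across all expressed genes. Every one of the 12 libraries of the series enters this comparison. The ganglia were those of spinal levels L1 to L6 of male mice aged 6 to 12 weeks, of strain C57BL/6J, which the labels call naive. No transgene, deletion or treatment is named for any group, so the 4 groups of 3 libraries differ in collection time. Polyadenylated RNA was sequenced as paired reads of 150 bases. Whether each library is a different animal is not stated in the labels, so p-values measure the spread between libraries, which may be technical. The library numbers follow the order of the times, and any batch of collection or preparation cannot be told apart from time. The sources used here do not give the hours of light or whether the kit kept strand.

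A dorsal root ganglion holds the cell bodies of the sensory neurons that report touch, temperature, position and pain from the body, each wrapped by satellite glia, with myelinating Schwann cells along the axons and vessels, fibroblasts and resident macrophages between them. The circadian clock is a transcriptional loop in which BMAL1 (Arntl) and CLOCK switch on the period and cryptochrome genes, whose products later shut them off, while REV-ERB proteins (Nr1d1 and Nr1d2) repress Arntl. Mice are active mainly in the dark. A comparison of 2 adjacent times with the other 2 reads transcripts that stand apart for both of them, and a rhythm that crosses its mean between ZT2 and ZT8 and again between ZT14 and ZT20 largely cancels in it.

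The deposited estimated counts of a library summed to between 89.8 and 125.0 in units of 1000000. They follow coverage, so that levels here, in CPM (counts scaled to a total of 1000000 per library), are already per length and can be set side by side between genes. From transcript lengths the depth came to about 24.0 to 33.5 read pairs in the same unit. Across genes, Pearson's r of log2 CPM between 2 libraries was 0.965 to 0.975. Neuronal markers were plentiful in every library, the 14 genes of the pan-neuronal list summing to between 21785 and 23124 CPM, and the 16 nociceptor markers to between 4312 and 5185 CPM. Skeletal muscle RNA differed widely between libraries of one time: the mean log2 CPM of 17 muscle markers was 3.81, 4.17 and 2.24 at ZT2, 2.61, 2.27 and 4.28 at ZT8, 4.58, 3.00 and 3.33 at ZT14 and 5.20, 0.91 and 2.72 at ZT20. In bulk RNA, fewer cells of a type and less RNA per cell cannot be told apart.

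Of 25809 genes tested, 0 (0%) passed an adjusted p of 0.05 for later against earlier times with edgeR's quasi-likelihood test and Benjamini-Hochberg adjustment. The lowest adjusted p was 0.0644, shared by Fabp7 and Dock9. At an unadjusted p under 0.05 stood 1409 genes (5.46%), against 1290 at that p if no gene differed, of which 761 (2.95% of genes tested) were higher and 648 (2.51%) lower at the later times. DESeq2 called 77 genes (0.299%), 50 higher and 27 lower, and limma-trend called 2 (0.00775%), both lower. The median log2 fold change of all genes was 0.00. The median standard error of a gene was 0.11 on the log2 scale over all genes and 0.05 over the 9547 genes at 10 CPM or more. All 6 later libraries lay above all 6 earlier ones for 42 genes (0.163%) and below them for 31 (0.12%). The genes described next are the 20 of lowest p; none passed the edgeR threshold, and all 20 passed DESeq2's. Of these, 15 were higher and 5 lower at the later times.

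In Dock9 the later libraries parted from the earlier ones at both later times. Dock9 encodes an exchange factor that activates the small GTPase CDC42 and is known for a role in dendrite growth, and it lies on chromosome 14 (chr14:121542046-121797837, minus strand, GRCm38). Its level was 30.9, 34.1 and 36.8 CPM at ZT2, 28.4, 35.2 and 34.3 at ZT8, 26.0, 21.6 and 24.5 at ZT14 and 19.95, 21.1 and 22.6 at ZT20. Every later library lay below every earlier one. The log2 fold change was -0.56 ± 0.07 (SE, 6 libraries against 6; edgeR adjusted p = 0.0644), a 1.47-fold lower level. The difference was of like size in the 2 pairs of opposite times, which share no library: -0.50 for ZT14 minus ZT2 and -0.62 for ZT20 minus ZT8.

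Fabp7, which encodes the brain-type fatty acid-binding protein that marks satellite glia, came first by p (log2 fold change -0.46 ± 0.05, SE; edgeR adjusted p = 0.0644). It lies on chromosome 10 (chr10:57784881-57788450, plus strand, GRCm38). Its level was 628, 566 and 577 CPM at ZT2, 328, 291 and 347 at ZT8, 217, 203 and 242 at ZT14 and 453, 436 and 477 at ZT20. The groups overlapped, since the ZT20 libraries lay above those of ZT8. The 2 pairs of opposite times had opposite signs, -1.42 for ZT14 minus ZT2 and 0.50 for ZT20 minus ZT8, so the value over both is the mean of unlike differences. The satellite glia list of 14 that holds Fabp7 had a median of 0.00, with 7 members above 0 and 7 below. At an unadjusted p under 0.05, 2 of the 14 were lower and none higher, beside 2.51% and 2.95% of all genes. They were Fabp7, already chosen here by its p, and the phosphatase gene Ptprz1 (log2 fold change -0.14 ± 0.05, edgeR adjusted p = 0.87).

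The start regions of Fabp7, Dock9 and the clock gene Cry1 are shown because the first pair had the lowest p and all 3 hold a short match to a clock element. They are RefSeq windows of 250 bases before to 50 after a transcription start in GRCm38.p6, 5′ to 3′ on the gene's strand, with matches in capitals. The E-box searched was CACGTG, which CLOCK and BMAL1 bind, and the core of the element that REV-ERB and ROR proteins bind (RORE) was TNGGTCA, each on both strands. The E-box occurs in 7.15% of 32851 windows and in a window of 8.09% of genes, and the RORE core in 11.0% and 12.4%. Among the 17 of the 20 genes with a window, 3 held the E-box (Cry1, Dock9 and Khk) and 3 the RORE core (Dock9, Fabp7 and Nostrin). The Fabp7 window is chr10:57784673-57784972, with a RORE core on the opposite strand. The Dock9 window is chr14:121738880-121739179, 1 of 3 starts listed for the gene, with an E-box and then a RORE core. It was picked from the 3 because it holds both matches, and it lies inside the gene and not at its 5′ end. The Cry1 window is chr10:85185005-85185304, with an E-box. A match is a run of letters and not a shown binding site.
Fabp7: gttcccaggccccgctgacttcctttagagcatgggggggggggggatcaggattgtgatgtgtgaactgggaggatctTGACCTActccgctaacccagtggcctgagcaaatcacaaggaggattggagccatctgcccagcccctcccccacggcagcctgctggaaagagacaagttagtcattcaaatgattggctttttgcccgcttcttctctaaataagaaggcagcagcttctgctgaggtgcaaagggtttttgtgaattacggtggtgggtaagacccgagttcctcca
Dock9: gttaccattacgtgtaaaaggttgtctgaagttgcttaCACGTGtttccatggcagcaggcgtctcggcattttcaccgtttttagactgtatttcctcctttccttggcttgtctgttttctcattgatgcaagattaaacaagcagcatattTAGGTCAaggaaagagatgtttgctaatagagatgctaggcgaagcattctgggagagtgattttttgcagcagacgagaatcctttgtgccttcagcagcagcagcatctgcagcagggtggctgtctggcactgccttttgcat
Cry1: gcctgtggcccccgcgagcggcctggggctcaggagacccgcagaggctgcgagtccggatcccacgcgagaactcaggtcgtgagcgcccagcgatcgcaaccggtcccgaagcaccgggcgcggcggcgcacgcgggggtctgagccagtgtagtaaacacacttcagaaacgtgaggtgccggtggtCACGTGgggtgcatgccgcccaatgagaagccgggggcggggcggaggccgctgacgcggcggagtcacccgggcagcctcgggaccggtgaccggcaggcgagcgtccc

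The other 3 genes at lower levels were Nr1d1, Dbi and Ccdc142. Dbi encodes the acyl-CoA-binding protein, a carrier of long-chain acyl-CoA that is abundant in glia. Its level was 654, 644 and 622 CPM at ZT2, 608, 582 and 631 at ZT8, 527, 472 and 500.4 at ZT14 and 563, 579 and 562 at ZT20. The later libraries all lay below the earlier ones although the difference was small, -0.23 ± 0.03 on the log2 scale (edgeR adjusted p = 0.105). Nr1d1, the REV-ERB alpha repressor of the clock, was at 26.6, 31.8 and 22.5 CPM at ZT2, 42.8, 44.0 and 58.7 at ZT8, 34.5, 23.6 and 21.8 at ZT14 and 12.9, 14.4 and 12.8 at ZT20. Its log2 fold change of -0.94 ± 0.13 (edgeR adjusted p = 0.105) came from 1 pair, -1.86 for ZT20 minus ZT8 against -0.02 for ZT14 minus ZT2. Nr1d1 overlaps Thra on the opposite strand, which stood at a log2 fold change of 0.02. Ccdc142, a gene of little-known function, had a log2 fold change of -0.47 ± 0.08 (edgeR adjusted p = 0.221). Mrpl53, 645 bases from it on the same strand, had a log2 fold change of 0.42, the other direction, at an unadjusted p of 0.00162 (edgeR's quasi-likelihood test). Gm42688, which was not among the genes tested, overlaps Ccdc142 on the same strand, and Ccdc142os overlaps it on the opposite strand. How reads were split between these genes was not tested.

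Among the 15 genes at higher levels, Plk5, Nostrin, Tead3, Ddn, Tesk1, Adamtsl4, Cry1, Prr15 and the long noncoding RNA B230311B06Rik had all 6 later libraries above all 6 earlier ones. Plk5, a polo-like kinase known from neurons and astrocytes, was at 10.2, 9.02 and 8.48 CPM at ZT2, 9.90, 8.71 and 8.85 at ZT8, 11.7, 13.9 and 13.7 at ZT14 and 11.1, 13.6 and 12.8 at ZT20. Its log2 fold change was 0.48 ± 0.07 (edgeR adjusted p = 0.112), with 0.51 and 0.45 in the 2 opposite pairs. Nostrin, an adaptor of endothelial cells that binds nitric oxide synthase and takes it inside the cell, was scarcer. It stood between 1.43 and 1.94 CPM in the earlier libraries and between 2.12 and 2.90 in the later ones, a log2 difference of 0.58 ± 0.09 (edgeR adjusted p = 0.112). Tead3, a DNA-binding partner of the Hippo pathway's YAP and TAZ, lay between 3.78 and 5.40 CPM and then between 5.56 and 6.86, 0.43 ± 0.07 on the log2 scale (edgeR adjusted p = 0.141). The levels of these 3 genes thus parted without overlap, by a margin as small as that between 5.40 and 5.56 CPM for Tead3.

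Ddn, whose product dendrin is a protein of dendrites and of kidney podocytes, had a log2 fold change of 0.37 ± 0.07, from a median of 18.8 to one of 22.9 CPM (edgeR adjusted p = 0.296). Tesk1, a kinase that acts on cofilin and so on actin, had a log2 fold change of 0.21 ± 0.04, from 48.2 to 54.8 CPM (edgeR adjusted p = 0.363). Adamtsl4, a matrix protein associated with fibrillin, had a log2 fold change of 0.24 ± 0.05, and Prr15, a small proline-rich protein, of 0.32 ± 0.06, both at an edgeR adjusted p of 0.369. B230311B06Rik had a log2 fold change of 0.43 ± 0.07 (edgeR adjusted p = 0.141). Ddn, Tesk1, Fstl3 and Prr15 each overlap a gene on the opposite strand, whose reads may be counted with theirs.

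The remaining genes of the set at higher levels did not part the groups. Fmo2, a flavin-containing monooxygenase that oxidizes drugs and other foreign compounds, was at 6.98, 6.80 and 5.52 CPM at ZT2, 8.47, 7.82 and 9.58 at ZT8, 17.6, 19.9 and 16.0 at ZT14 and 8.71, 7.29 and 6.87 at ZT20. Only the ZT14 libraries stood apart, so that the log2 fold change of 0.65 ± 0.09 (edgeR adjusted p = 0.105) joined 1.47 for ZT14 minus ZT2 and -0.18 for ZT20 minus ZT8. Khk, the ketohexokinase that starts fructose breakdown, was at 20.2, 20.2 and 23.5 CPM at ZT2, 34.0, 33.6 and 37.2 at ZT8, 36.0, 30.3 and 34.2 at ZT14 and 37.8, 34.7 and 36.1 at ZT20. Here the ZT2 libraries were the ones that stood apart, below the other 9, and the log2 difference was 0.35 ± 0.06 (edgeR adjusted p = 0.141). Emilin1, 153 bases away on the same strand, had a log2 fold change of -0.38 at an unadjusted p of 0.00876 (edgeR's quasi-likelihood test). Fstl3, a secreted inhibitor of activins, had a log2 fold change of 0.25 ± 0.04, Plekhg2 of 0.25 ± 0.04, and the ciliary protein gene Cys1 of 0.39 ± 0.08, with edgeR adjusted p-values of 0.26, 0.26 and 0.369. The short gene Mir3473e, inside Rbks, was listed at 0 in all 3 ZT2 libraries and below 0.67 CPM in the others, so no fold change is given for it.

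**Figure D1:**
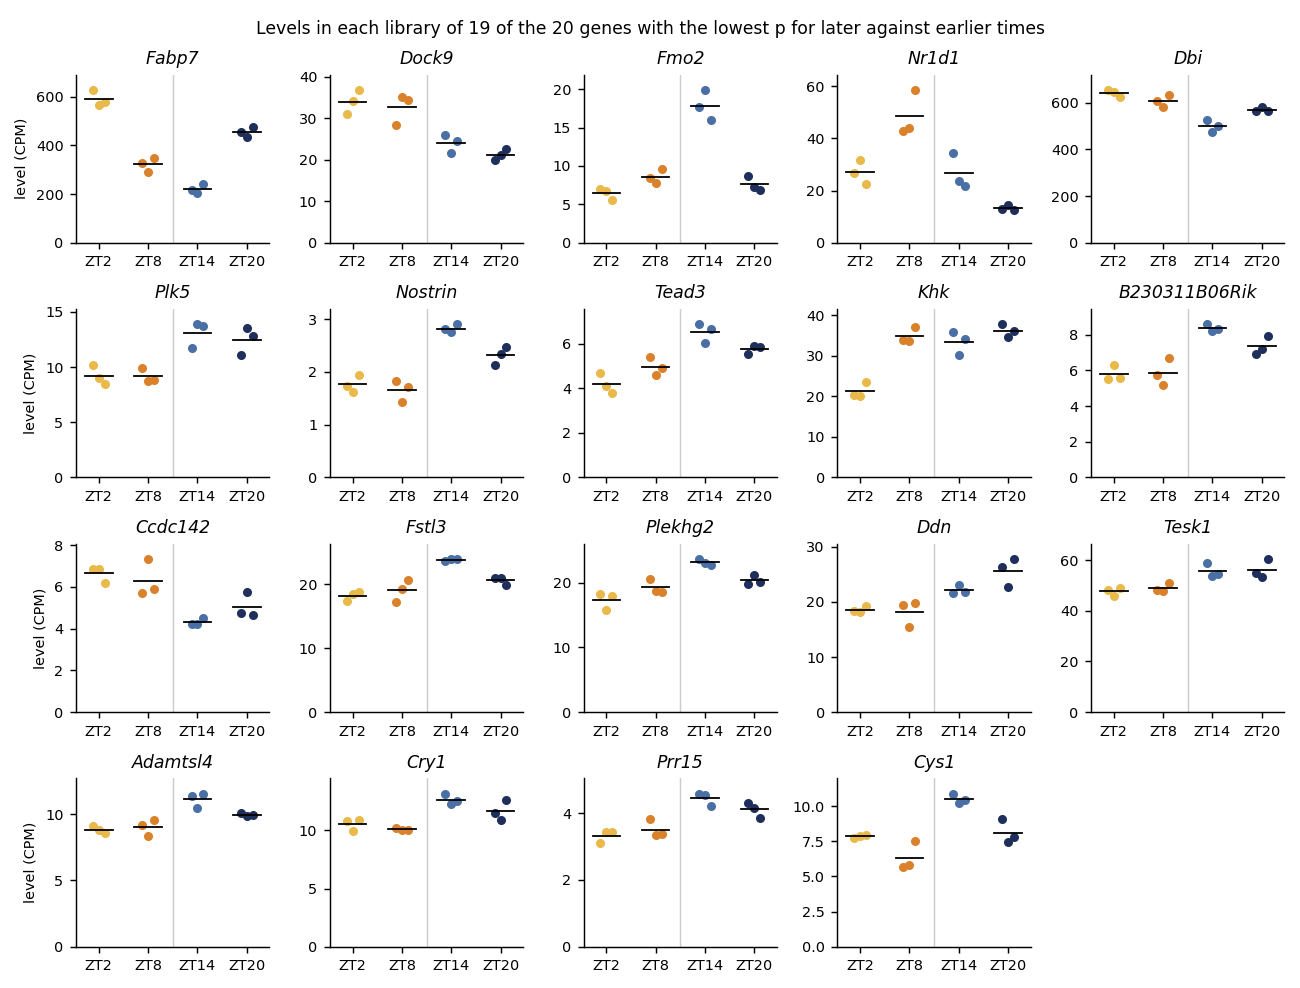
Level in CPM (vertical axes, from 0) in each library (points) at ZT2, ZT8, ZT14 and ZT20, with the mean of each time as a bar, for 19 of the 20 genes of lowest p (Mir3473e, near 0, is left out); the grey line parts earlier from later times. Dock9 and Dbi have all 6 later libraries below the earlier ones and 9 genes have them above, while Fabp7, Fmo2, Nr1d1 and Khk overlap.

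Of the 20 genes, 17 had the same sign in both pairs of opposite times, while Fabp7, Fmo2 and Mir3473e did not. The 20 were chosen by a p for the mean of these 2 differences. That choice favours like signs, so the 17 are no separate support. Whether the 2 pairs differed was tested in the same fit as the difference of ZT14 minus ZT2 and ZT20 minus ZT8. That test called 13 genes (0.0504% of those tested) at an edgeR adjusted p under 0.05, of which 3 were among the 20 (Fabp7, Fmo2 and Nr1d1); 4.98% of genes had an unadjusted p under 0.05 in it. For Dock9 the 2 differences were 0.12 ± 0.14 (SE) apart on the log2 scale and for Plk5 0.06 ± 0.14, both at an edgeR adjusted p of 1. Missing the threshold does not show that the pairs were alike. The other pairing, ZT14 minus ZT8 against ZT20 minus ZT2, called 0 genes (0%) with edgeR and limma-trend and 126 with DESeq2; 1921 (7.44%) had an unadjusted p under 0.05.

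**Figure D2:**
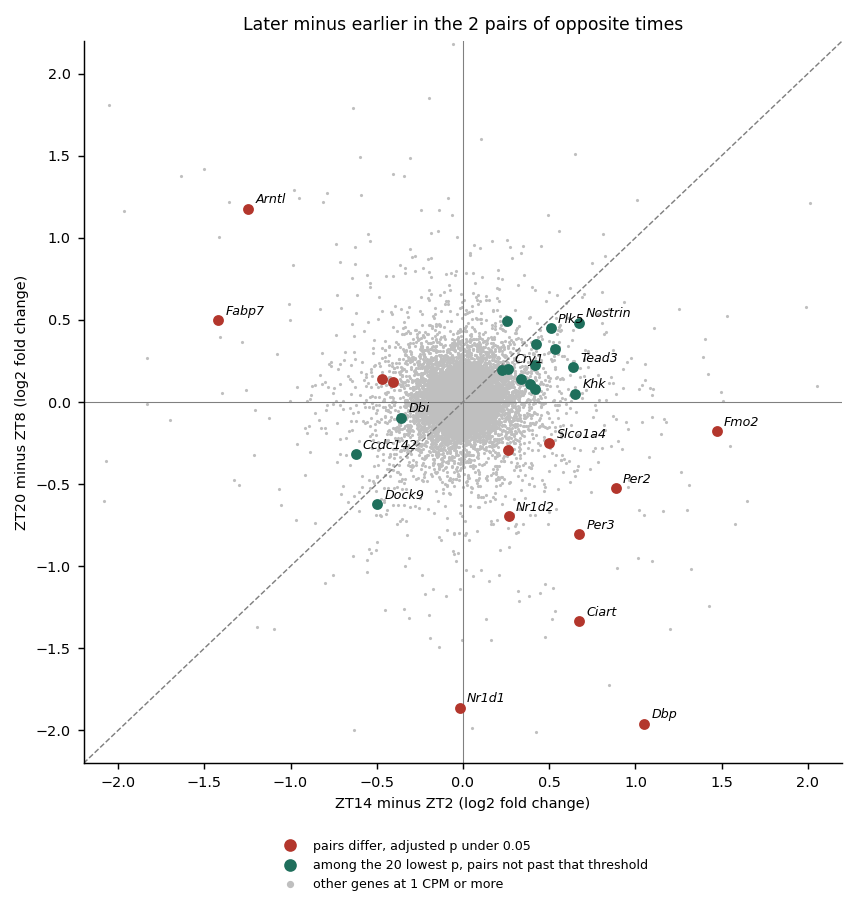
Log2 fold change of ZT14 minus ZT2 (horizontal) and ZT20 minus ZT8 (vertical) for 16244 genes at 1 CPM or more (grey; 15 others lie outside the axes), with the 13 genes whose pairs differed in red and other genes of lowest p in green; the dashed line marks equal differences. Dock9, Plk5, Nostrin and Cry1 lie near the line, while Arntl and Dbp lie in the quadrants of opposite sign.

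Of 20 core clock genes tested (Rorb was below the filter), 2 were higher (Cry1 and Per2) and 4 lower (Nr1d1, Nr1d2, Ciart and Dbp) at an unadjusted p under 0.05, beside 2.95% and 2.51% of all genes, and none passed adjustment with edgeR. With later or earlier as the only factor of the fit, 1 was higher and 1 lower. The median over the 20 was -0.03, beside 0.00 for all genes tested. Arntl, the activator, stood at 6.40, 6.05 and 6.27 CPM at ZT2, 2.90, 2.43 and 3.14 at ZT8, 2.52, 2.58 and 2.80 at ZT14 and 6.75, 5.54 and 6.88 at ZT20. ZT2 and ZT20 were high and ZT8 and ZT14 low, so each side of the comparison held 1 of each, and the log2 fold change was -0.03 ± 0.08. Its partner Clock had a log2 fold change of -0.09 ± 0.07, and Npas2, which can take the place of Clock, of -0.04 ± 0.06.

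Cry1, a repressor of CLOCK and BMAL1, was the clock gene whose later and earlier libraries did not overlap. It stood at 10.8, 9.97 and 10.9 CPM at ZT2, 10.2, 10.1 and 10.05 at ZT8, 13.1, 12.2 and 12.5 at ZT14 and 11.5, 10.9 and 12.6 at ZT20. The log2 fold change was 0.23 ± 0.04 (edgeR adjusted p = 0.369), with 0.26 and 0.20 in the opposite pairs. Cry2, its relative, had a log2 fold change of 0.03 ± 0.04. Per2 reached 7.56, 8.25 and 9.10 CPM at ZT14 but 3.33, 4.39 and 3.68 at ZT20, and its log2 fold change of 0.18 ± 0.08 joined 0.88 and -0.52. Per1 and Per3, the other period genes, had values of -0.04 ± 0.12 and -0.06 ± 0.07. Cry2, Per1, Per2 and Per3 had opposite signs in the 2 pairs, unlike Cry1.

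Nr1d2, the other REV-ERB repressor, had a log2 fold change of -0.22 ± 0.05 (edgeR adjusted p = 0.552) and Ciart, a repressor of BMAL1, of -0.33 ± 0.10 (edgeR adjusted p = 0.742). Dbp, a clock-driven transcription factor, had a log2 fold change of -0.45 ± 0.16 (edgeR adjusted p = 0.843), the mean of 1.05 for ZT14 minus ZT2 and -1.96 for ZT20 minus ZT8. All 3 had their highest mean level at ZT8 and their lowest at ZT20. The related factors Tef and Hlf had log2 fold changes of -0.02 ± 0.03 and 0.04 ± 0.08, and Nfil3, which competes with them for the D-box, 0.02 ± 0.05. Bhlhe40 and Bhlhe41, repressors that bind E-boxes, had -0.01 ± 0.05 and 0.00 ± 0.06. Arntl2 and Rora had 0.05 ± 0.07 and -0.09 ± 0.07. Usp2, a ubiquitin protease of the clock's outputs in many tissues, had a log2 fold change of 0.25 ± 0.06 (edgeR adjusted p = 0.585). It was among 4 of 21 tested genes of that output list higher at an unadjusted p under 0.05, beside 2.95% of all genes. None was lower, and the others were Fmo2, Cys1 and the cold-inducible Rbm3. Fmo2 and Cys1 are also among the 20 genes of lowest p. The list median of 0.09 joined 0.17 for ZT14 minus ZT2 and 0.00 for ZT20 minus ZT8. In these pairs 9 and 3 members were higher at that p, beside 2.9% and 2.87% of all genes.

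Interferon-stimulated genes, the antiviral programme that type I interferon switches on, lay lower at the later times as a list. Of 25 members tested, 24 had a log2 fold change below 0 (50.2% of all genes were above 0), 12 had an unadjusted p under 0.05 for a lower level (2.51% of all genes did) and 0 for a higher one; none passed adjustment, the lowest edgeR adjusted p being 0.595, and DESeq2 called none. The median was -0.27, beside 0.00 for all genes tested, with -0.27 for ZT14 minus ZT2 and -0.28 for ZT20 minus ZT8. Ifi44, an interferon-induced protein with antiviral activity, was at 3.45, 4.60 and 2.25 CPM at ZT2, 3.55, 4.82 and 4.23 at ZT8, 2.12, 2.75 and 2.19 at ZT14 and 1.69, 2.92 and 2.15 at ZT20, a log2 difference of -0.72 ± 0.18. Usp18, which removes ISG15 from proteins and damps the response, was at 7.02, 8.81 and 5.36 CPM, 7.19, 10.5 and 9.68, 5.15, 5.01 and 4.76 and 4.08, 7.81 and 5.08 at the same times (-0.60 ± 0.17). For both genes the highest later library was ZT20 replicate 2 and the lowest earlier one ZT2 replicate 3, and the groups overlapped. Irf7, the factor that amplifies interferon production, had a log2 fold change of -0.45 ± 0.15, and the GTPase Mx2 of -0.34 ± 0.11.

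Libraries of one time differed in this list too: the mean log2 CPM of its genes was 3.53, 3.94 and 3.42 at ZT2, 3.66, 3.84 and 3.75 at ZT8, 3.32, 3.45 and 3.29 at ZT14 and 3.15, 3.76 and 3.33 at ZT20. ZT20 replicate 2 lay within the earlier range. The count of 12 was 20 without ZT20 replicate 2 and 5 without ZT20 replicate 3; it was 6 without ZT2 replicate 2, ZT8 replicate 2, ZT14 replicate 1 or ZT20 replicate 1, each left out alone, and 7 without ZT14 replicate 3. Leaving out the 4 muscle-rich libraries, a fit on fewer libraries, made it 2, with a median of -0.14. With all libraries and the muscle score as a covariate it was 14, with a median of -0.28. Over all genes the covariate fit had 2005 of 25809 at that p in either direction. Oas1a, which makes the signal molecule that starts RNA decay in infected cells, had a log2 fold change of -0.42 ± 0.16; it was chosen, after its values were seen, as the member of lowest p whose start region holds the interferon response element. That element, searched as GAAA, any 2 bases and GAAA on both strands, occurs in 3.44% of all 32851 windows and in a window of 3.99% of genes, and in that of 10 of the 17 members that have one. The Oas1a window (chr5:120907476-120907775, minus strand, GRCm38.p6, RefSeq) holds it in 2 overlapping copies, in capitals.
Oas1a: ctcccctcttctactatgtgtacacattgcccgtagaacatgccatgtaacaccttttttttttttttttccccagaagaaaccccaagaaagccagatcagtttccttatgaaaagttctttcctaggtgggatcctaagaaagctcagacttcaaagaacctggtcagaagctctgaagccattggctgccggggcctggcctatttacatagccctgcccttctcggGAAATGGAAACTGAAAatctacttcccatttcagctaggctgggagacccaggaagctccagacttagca

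Markers of neutrophils and bone marrow lay lower as well, and here the 2 pairs of opposite times gave unlike medians, which were not tested against each other. All 15 members had a log2 fold change below 0, 8 at an unadjusted p under 0.05 (2.51% of all genes were lower at that p; none adjusted by edgeR; lowest adjusted p 0.527; DESeq2 called 2), and the median was -0.64. The median was -0.00 for ZT14 minus ZT2 but -1.18 for ZT20 minus ZT8. S100a9, a subunit of calprotectin that fills the neutrophil cytosol, was at 59.2, 41.9 and 22.8 CPM at ZT2, 28.7, 40.1 and 30.6 at ZT8, 28.4, 45.6 and 38.6 at ZT14 and 16.6, 8.77 and 10.1 at ZT20. All 3 ZT20 libraries were below the other 9. The count of 8 was 1 with later or earlier as the only factor of the fit and 5 without the 4 muscle-rich libraries. It stayed 8 with the muscle score as a covariate. Camp, the cathelicidin of neutrophil granules, had 4.17, 2.49 and 2.60 CPM at ZT20, and its log2 difference over both pairs was -0.80 ± 0.18; S100a8 and Retnlg had -0.70 ± 0.19 and -0.80 ± 0.23.

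Erythroid markers were also lowest at ZT20 as a list. For ZT14 minus ZT2, 9 of them lay above 0 and 5 below, against 6 and 9 of the neutrophil markers. Alas2, which starts haem synthesis in red cell precursors, was at 12.6, 10.5 and 5.90 CPM at ZT2, 7.56, 7.55 and 7.20 at ZT8, 12.9, 14.2 and 13.4 at ZT14 and 3.48, 2.41 and 2.40 at ZT20. The ZT14 libraries were the highest and the ZT20 libraries the lowest, both of them later times. Over 14 members tested, 10 lay below 0 and 4 above, and the median was -0.39, with 0.09 and -0.68 in the 2 pairs. At an unadjusted p under 0.05 stood 2 members, both lower (Alas2 and Hba-a1), beside 2.51% of all genes. The median was -0.06, with none at that p, when later or earlier was the only factor, -0.11 without the 4 muscle-rich libraries and -0.20 without ZT8 replicate 3. With the muscle score as a covariate the median was -0.39, with 4 members lower at that p. The count was 6 without ZT2 replicate 3, 5 without ZT20 replicate 1 and 1 to 3 without any other library. The copies of haemoglobin alpha, Hba-a1 and Hba-a2, are near-identical, and the split of reads between them is uncertain. Red cell and neutrophil RNA were thus both lowest at ZT20, and the part of blood in the samples was not tested. Macrophage markers and T and B cell markers had medians of -0.02 over 15 genes and -0.08 over 14. At an unadjusted p under 0.05, 1 macrophage marker was higher and 1 lower, beside 2.95% and 2.51% of all genes. No lymphocyte marker stood at that p in either direction. Both medians changed sign, to 0.08 and 0.10 without the 4 muscle-rich libraries and to 0.11 and 0.16 without ZT8 replicate 3. With the muscle score as a covariate they were -0.01 and -0.04. Without ZT2 replicate 2 they were 0.03 and 0.06, and the macrophage median also lay above 0 without ZT2 replicate 1, ZT14 replicate 3 or ZT20 replicate 3.

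Myelin genes of Schwann cells lay on the higher side. Of 14, 13 had a log2 fold change above 0 and 8 had an unadjusted p under 0.05 for a higher level (2.95% of all genes did); none passed adjustment with edgeR (lowest adjusted p 0.695) or DESeq2. The median was 0.14, with 0.11 and 0.15 in the 2 opposite pairs. Fa2h, which makes the hydroxylated fatty acids of myelin lipids, was at 58.7, 56.1 and 58.3 CPM at ZT2, 52.8, 47.8 and 63.1 at ZT8, 67.6, 67.4 and 67.5 at ZT14 and 64.3, 60.3 and 58.8 at ZT20. Gjb1, the gap junction protein of non-compact myelin, had a log2 fold change of 0.22 ± 0.07, the myelin lipid raft protein gene Pllp of 0.20 ± 0.07 and the compact myelin protein gene Pmp22 of 0.13 ± 0.04. ZT8 replicate 3 reached into the later range for these genes, and ZT8 replicate 2 was the lowest library for each. The one member below 0 was Egr2, the transcription factor that switches on myelin genes, at -0.21 ± 0.10 (unadjusted p = 0.0579, edgeR's quasi-likelihood test). Without any 1 library the count was 6 to 9, and the median was 0.09 without ZT8 replicate 2. The 9 came without ZT8 replicate 3, a fit in which 2482 of 26889 genes stood at that p in either direction.

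Vessel and connective tissue lists also lay on the higher side, where 2.95% of all genes stood at an unadjusted p under 0.05. All 14 fibroblast markers had a log2 fold change above 0 (median 0.16; 4 at an unadjusted p under 0.05), as did 14 of 15 endothelial markers (median 0.10; 3) and 12 of 13 markers of smooth muscle and pericytes (median 0.12; 2). The 2 pairs of opposite times gave unlike medians for the vessel lists, a difference that was not tested. For ZT14 minus ZT2 and ZT20 minus ZT8 the medians were 0.26 and 0.01 for smooth muscle and pericytes, 0.15 and 0.04 for endothelium, and 0.18 and 0.13 for fibroblasts. Leaving out 1 library gave fibroblast medians from 0.09 (without ZT20 replicate 1) to 0.24 (without ZT8 replicate 3), and 0.00 (without ZT14 replicate 1) to 0.21 (without ZT8 replicate 3) for smooth muscle and pericytes. Mgp, an inhibitor of calcification made by fibroblasts and mural cells, was at 43.3, 57.0 and 40.02 CPM at ZT2, 51.8, 42.7 and 56.7 at ZT8, 85.8, 82.7 and 83.7 at ZT14 and 68.6, 55.0 and 40.3 at ZT20. All 3 ZT14 libraries were above the other 9, and the log2 difference was 0.48 ± 0.13 (edgeR adjusted p = 0.631). Clec3b and Pi16, markers of fibroblasts around vessels and nerves, had 0.57 ± 0.20 and 0.46 ± 0.17. Kdr, the main receptor for vascular endothelial growth factor, had 0.14 ± 0.06, Notch3, a receptor of mural cells, 0.17 ± 0.05, and Pdgfrb, which recruits pericytes, 0.14 ± 0.04. Slc2a1, a glucose transporter listed for both fibroblasts and endothelium, had 0.15 ± 0.04 (edgeR adjusted p = 0.567). Leaving out ZT8 replicate 3 took the fibroblast count from 4 to 10 and the endothelial one from 3 to 7. Over all genes that fit had 2482 of 26889 at that p in either direction, against 1409 of 25809 with all libraries. The fibroblast count was 7 when ZT20 replicate 2 was left out and 9 with the muscle score as a covariate. Over all genes these fits had 1664 of 26863 and 2005 of 25809 at that p in either direction.

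Of the lists of tissue that borders the ganglia, those of fat and muscle lay on the higher side, and their part in the values above was not tested. Markers of spinal cord and of bone and cartilage lay on the lower side, with medians of -0.08 (7 of 8 below 0) and -0.13 (8 of 10), none at an unadjusted p under 0.05. Adipocyte markers had a median of 0.68, all 10 tested being above 0 and none at an unadjusted p under 0.05, and their sum ran from 16.4 to 35.4 CPM in the earlier and from 19.6 to 71.0 CPM in the later libraries. The adipocyte median was 0.33 without ZT20 replicate 1 and 0.36 without ZT14 replicate 1, and at most 0.89, without ZT8 replicate 3. The number at an unadjusted p under 0.05 was 4 without ZT8 replicate 3 and with the muscle covariate, 3 without ZT14 replicate 3 or ZT20 replicate 3, 2 without ZT14 replicate 2 and 1 without ZT2 replicate 1. In the fits that gave 4, 2482 of 26889 and 2005 of 25809 of all genes stood at that p in either direction. Adipoq, the fat cell hormone adiponectin, was highest in ZT14 replicate 1 and ZT20 replicate 1, the 2 libraries highest in muscle RNA. Muscle markers had a median of 0.42 with 16 of 17 above 0 and none at an unadjusted p under 0.05; it was -0.68 without ZT20 replicate 1 alone, and -0.41 once the 4 muscle-rich libraries (ZT2 replicate 2, ZT8 replicate 3, ZT14 replicate 1 and ZT20 replicate 1) were left out. Without those 4, 9 myelin genes stood at an unadjusted p under 0.05 and the median of the list was 0.17. For fibroblasts these were 3 and 0.16, and for endothelium 4 and 0.12. Over all genes that fit had 1948 of 26167 at that p in either direction. Without these libraries the median was 0.05 for smooth muscle and pericytes, 0.28 for adipocytes and 0.04 for collagens. The summed level of the 8 spinal cord markers tested stayed between 21.2 and 28.1 CPM.

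**Figure D3:**
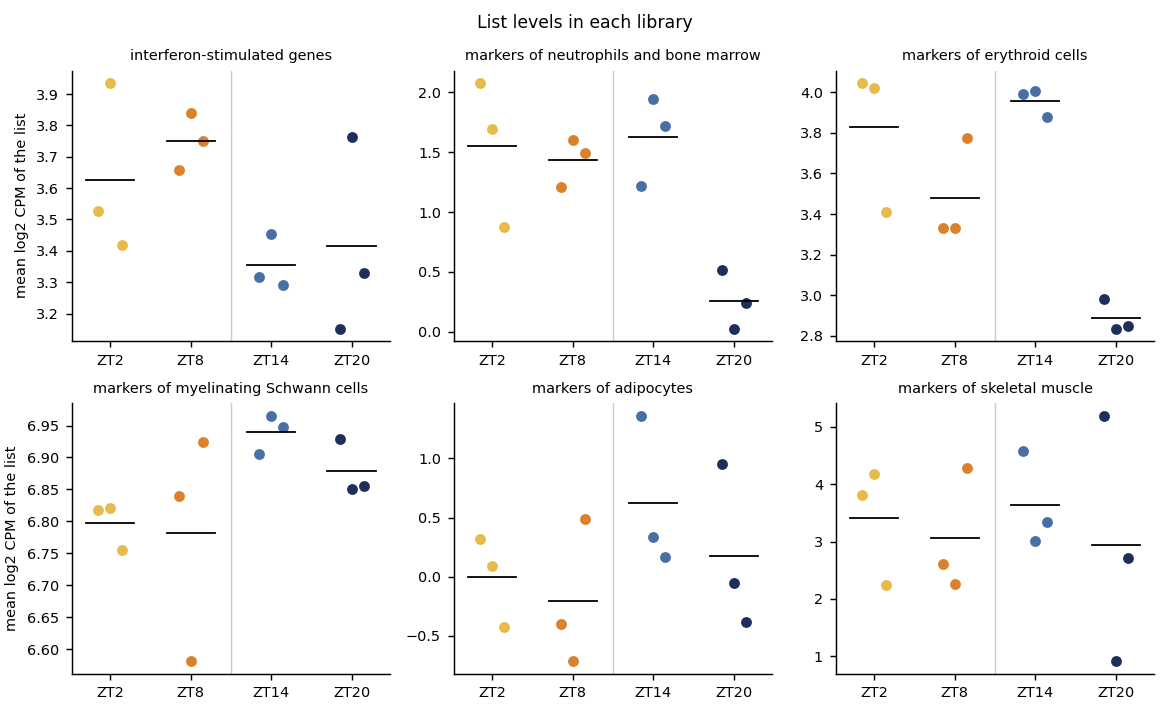
Mean log2 CPM of the genes of 6 lists (vertical axes, which do not start at 0) in each library (points) at ZT2, ZT8, ZT14 and ZT20, with the mean of each time as a bar. Interferon-stimulated genes overlap between earlier and later times, with ZT20 replicate 2 and ZT14 replicate 2 above ZT2 replicate 3, neutrophil and erythroid markers are lowest in the 3 ZT20 libraries, and muscle markers spread from 0.91 to 5.20 within ZT20.

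Genes of lipid synthesis and of the adrenal steroid response showed small values. In the sterol and fatty acid synthesis list, 22 of 29 were above 0 (50.2% of all genes were), with a median of 0.04. At an unadjusted p under 0.05 stood 6, all higher, beside 2.95% of all genes. The number above 0 was 16 without ZT20 replicate 2 and 17 without ZT8 replicate 3 or ZT14 replicate 2. It was 25 without ZT8 replicate 2 or ZT20 replicate 1. Tm7sf2, a sterol reductase, stood between 117 and 128 CPM in the earlier and between 125 and 134 in the later libraries (0.09 ± 0.02 on the log2 scale; edgeR adjusted p = 0.58). Mvk, Msmo1 and Nsdhl, further enzymes of cholesterol synthesis, had 0.10 ± 0.03, 0.07 ± 0.02 and 0.08 ± 0.03. These differences are small beside those of the genes of lowest p. Glucocorticoid-responsive genes had a median of 0.05 over 25, made of 0.18 for ZT14 minus ZT2 (11 at an unadjusted p under 0.05, all higher; 2.9% of all genes were) and -0.09 for ZT20 minus ZT8 (2 higher and 6 lower, beside 2.87% and 2.41% of all genes). Without ZT14 replicate 3 the median over both pairs was 0.02. Fam107a, an actin-bundling protein that stress hormones raise, was at 15.8, 14.5 and 12.2 CPM at ZT2, 18.7, 20.3 and 17.8 at ZT8, 24.9, 26.5 and 30.5 at ZT14 and 14.8, 19.8 and 17.4 at ZT20 (0.41 ± 0.09; edgeR adjusted p = 0.399). As with Fmo2, only its ZT14 libraries stood above all others.

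Cell cycle genes were scarce and lay slightly lower, with a median of -0.10 and 23 of 26 below 0 (50.2% of all genes were above 0). At an unadjusted p under 0.05 stood 3, all lower, beside 2.51% of all genes. The median was -0.06 for ZT14 minus ZT2 (15 of 26 below 0) and -0.18 for ZT20 minus ZT8 (24 of 26), and it ran from -0.18 without ZT8 replicate 1 to -0.07 without ZT8 replicate 3. Cenpa, the histone that marks centromeres, was at 1.83, 2.40 and 1.68 CPM at ZT2, 2.58, 2.15 and 2.24 at ZT8, 1.80, 1.67 and 1.49 at ZT14 and 1.42, 1.85 and 1.39 at ZT20 (-0.42 ± 0.12; edgeR adjusted p = 0.642). Its levels overlapped by a narrow margin. Mcm5, of the replicative helicase, had -0.20 ± 0.07 and the spindle protein gene Nusap1 -0.24 ± 0.10. Collagens had a median of 0.09 over 21 genes, with 2 higher (2.95% of all genes were) and none lower (2.51%) at an unadjusted p under 0.05. Leaving out ZT8 replicate 3 made this 6 higher and 2 lower, and ZT20 replicate 2, 5 higher, while 0 or 1 were higher in 7 of the other fits. Over all genes the fits without ZT8 replicate 3 and ZT20 replicate 2 had 2482 of 26889 and 1664 of 26863 at that p in either direction. The median ran from 0.04 without ZT20 replicate 1 to 0.14 without ZT20 replicate 2. Housekeeping lists were near 0, with medians of 0.01 over 77 cytoplasmic ribosomal proteins, 31 proteasome subunits and 54 nuclear genes of the respiratory chain. Heat shock chaperones, 22 genes, had a median of -0.03. The 22 chaperones of the endoplasmic reticulum had a median of -0.06, made of -0.09 for ZT14 minus ZT2 and 0.02 for ZT20 minus ZT8. In the first pair 7 of them were lower and 1 higher at an unadjusted p under 0.05, beside 591 and 748 of all 25809 genes. In the other pair 0 were lower and 1 higher.

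**Figure D4:**
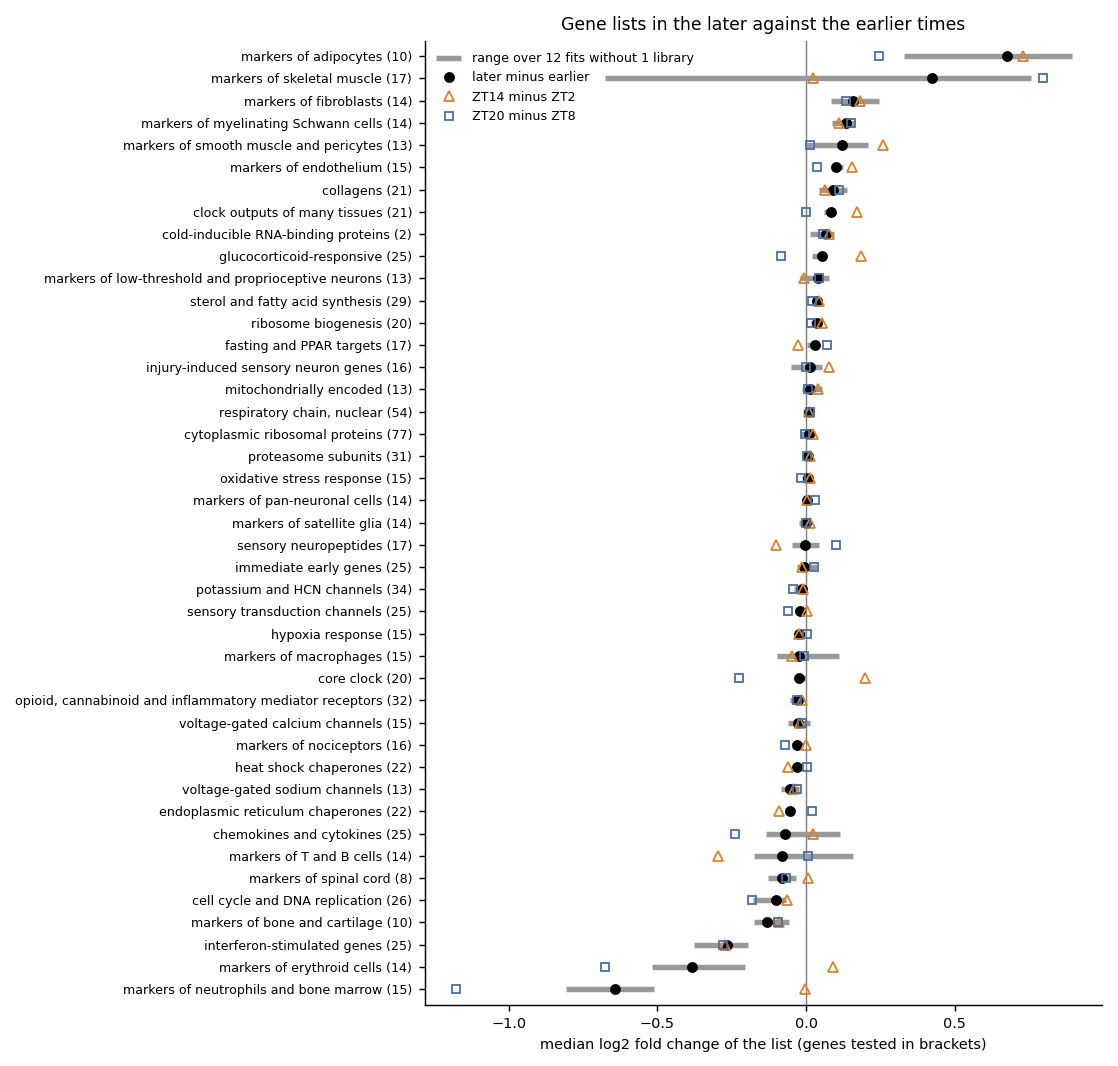
Median log2 fold change of each of 43 gene lists (horizontal axis; genes tested in brackets) for later minus earlier times (black points) and for the 2 pairs of opposite times (open triangles and squares), with the range over 12 fits that each leave out 1 library (grey bars). Interferon-stimulated genes have both pairs near the black point, neutrophil and erythroid markers do not, and the muscle list spans 0.

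Genes through which sensory neurons detect and transmit signals had small values, with more below 0 than above in each list when all libraries were in the fit. Below 0 lay 12 of 13 sodium, 21 of 34 potassium and HCN, 9 of 15 calcium and 14 of 25 transduction channel genes. So did 9 of 17 neuropeptides, 21 of 32 receptors and 12 of 16 nociceptor markers. Not every list kept this direction. Without ZT2 replicate 3, 9 of 15 calcium channel genes and 10 of 17 neuropeptides lay above 0. Without ZT20 replicate 1, 17 of 34 potassium and HCN channel genes did. Without ZT8 replicate 2, 8 of 13 sodium channel genes lay below 0. For ZT14 minus ZT2, 13 of 25 transduction channel genes lay above 0, and for ZT20 minus ZT8, 11 of 17 neuropeptides. The median over the 141 genes of these lists was -0.03, and 50.2% of all genes tested were above 0. Over 141 genes of the lists of sodium, potassium, HCN, calcium and transduction channels, neuropeptides, opioid, cannabinoid and inflammatory receptors, and nociceptor markers, 0 were higher and 3 lower at an unadjusted p under 0.05, 2.13% of them beside 5.46% of all genes; none passed adjustment with edgeR and DESeq2 called 1 (Lpar1). The 95% interval of the log2 fold change lay within ±0.5 for 119 of the 141, and for 99 of the 105 at 10 CPM or more. Scn10a, the tetrodotoxin-resistant channel Nav1.8 of nociceptors, was at 151, 143 and 162 CPM at ZT2, 158, 177 and 144 at ZT8, 161, 153 and 161 at ZT14 and 139, 165 and 152 at ZT20. Its log2 fold change was -0.00 with a 95% interval from -0.13 to 0.12. The related channel genes Scn9a and Scn11a had -0.12 (from -0.24 to 0.01) and -0.05 (from -0.17 to 0.06). Later and earlier libraries overlapped for all 3 channels.

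Among sensors, Trpv1, the receptor for heat and capsaicin, had -0.07 (95% interval from -0.20 to 0.07), Trpa1, the receptor for irritants, -0.09 (from -0.28 to 0.09), the ATP-gated channel gene P2rx3 -0.08 (from -0.23 to 0.07), and Piezo2, the channel of light touch, -0.11 (from -0.28 to 0.06). Tac1, the precursor of substance P, had -0.00 (from -0.12 to 0.11) and Calca, which encodes the alpha form of the peptide CGRP, -0.05 (from -0.18 to 0.08). Calcb, which encodes the beta form, had the largest difference of the 3 genes at an unadjusted p under 0.05. It was at 222, 174 and 242 CPM at ZT2, 188, 214 and 159 at ZT8, 178, 173 and 164 at ZT14 and 136, 157 and 161 at ZT20. The highest later library, at 178 CPM, lay above the lowest earlier one, at 159 CPM. The log2 fold change was -0.31 ± 0.09 (edgeR adjusted p = 0.693), -0.31 and -0.30 in the 2 opposite pairs. Lpar1, a receptor for lysophosphatidic acid also present in glia, had -0.12 ± 0.03, and Lifr, the receptor of leukaemia inhibitory factor, -0.10 ± 0.04. Nefh, the heavy neurofilament of large myelinated neurons, had 0.08 ± 0.04 (edgeR adjusted p = 0.87).

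**Figure D5:**
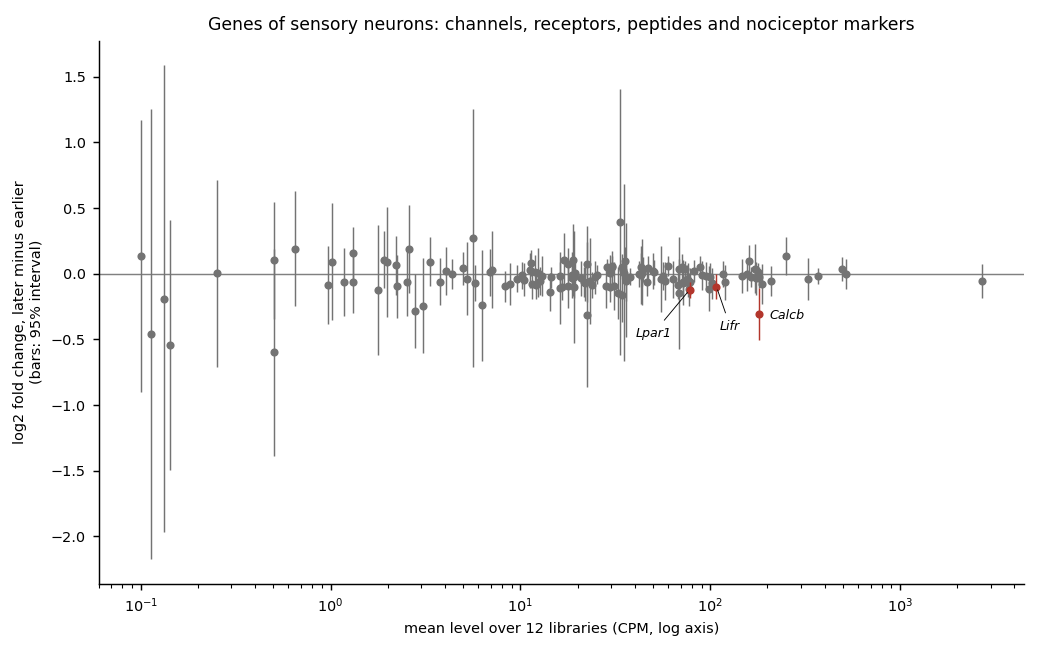
Log2 fold change of later minus earlier times (vertical axis, bars are 95% intervals) against the mean level over 12 libraries in CPM (horizontal log axis) for 141 genes of channels, receptors, neuropeptides and nociceptor markers. The 3 genes at an unadjusted p under 0.05 (red) lie below 0, and the 3 widest intervals are those of genes below 1 CPM.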

How the data were processed

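Polyadenylated RNA of 12 mouse dorsal root ganglion libraries was analysed, 3 at each of 4 times, grouped by the time in the labels. Per the submitters' processing notes, HISAT2 2.2.1, StringTie 2.1.5 and genome build GRCm38.p6 were used, in roles and with an annotation that the sources used here do not give. The deposited values are estimated counts per gene, not whole numbers. They follow coverage, since genes of different length shared the commonest value above 10 of a library. They were rounded, and read depth could only be approximated from transcript length. The 348 loci without a gene ID were left out (0.203% to 0.231% of a library).

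Of 38594 Ensembl IDs, 38462 matched GENCODE M21 without their version suffix. Genes were tested with edgeR 4.0.16 in R 4.3.3 (filterByExpr on the 4 times, TMM, robust quasi-likelihood fit, 1 mean per time, Benjamini-Hochberg adjustment over 25809 genes; 12785 fell below the filter). The contrast was the mean of ZT14 and ZT20 minus the mean of ZT2 and ZT8. DESeq2 1.42.0 and limma 3.58.1 (limma-trend on log2 CPM, prior count 2) were alternatives, as were other size factors, filters, a length-scaled read table, later or earlier as the only factor, a replicate block, a muscle covariate and left-out libraries. The pipeline was tested on simulated data.

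The text names the genes past the threshold filled up to the 20 of lowest p, all tested core clock genes but 1 that is not reported here, up to 4 genes of lowest p in each of the 43 lists, and 9 genes of nociceptors; Oas1a, and the neighbours and overlapping genes beside named ones, were added after their values were seen. The members and lists were chosen with earlier results of these data known. A list gets counts and a median but no test. Promoter windows are from RefSeq and gene coordinates from GENCODE M21 (GRCm38).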

Additional observations from a re-analysis of the deposited data

Results flagged for a closer look

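In 13 genes the later-minus-earlier difference was unequal in the 2 pairs of opposite times, tested as ZT14 minus ZT2 less ZT20 minus ZT8 in the edgeR fit over all genes. In 8 of them, all core clock genes, this double difference on the log2 scale was -2.42 for Arntl, 3.01 for Dbp, 2.01 for Ciart, 1.84 for Nr1d1, 0.56 for Tef, 0.96 for Nr1d2, 1.41 for Per2 and 1.48 for Per3. The other 5 were Fabp7 at -1.92, Fmo2 at 1.65, Slco1a4 at 0.75, Spg21 at -0.61 and Sat1 at -0.52. The edgeR adjusted p-values ran from 4.28e-05 for Fabp7 to 0.0461 for Spg21, Sat1 and Nr1d1. Slco1a4 encodes an organic anion carrier of the vessels, and Sat1 the enzyme that starts polyamine breakdown. Over both pairs their log2 fold changes were 0.13 and -0.14, and that of Spg21 was -0.16. In 12 of the 13 the 2 pairs had opposite signs; in Nr1d1 they were -0.02 and -1.86. Groups of 3 libraries were not screened for outliers.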

How the results depend on the processing

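The count of genes past an adjusted p of 0.05 for later against earlier times, 0 with edgeR, depended on the tool and the genes tested. It was 77 with DESeq2, 2 with limma-trend, 2 with no low-count filter, 2 with at least 1 CPM in 3 libraries and 2 with approximate reads; the 2 were Fabp7 and Dock9, and the cause was not tested. It was 0 under the other size factors, with later or earlier as the only factor, without the muscle-rich libraries and with the muscle covariate. Without any 1 library it was 0 to 4: 4 without ZT14 replicate 1, and 1 each without ZT8 replicate 1, ZT8 replicate 2 and ZT14 replicate 3. For the difference between opposite pairs the count of 13 became 80 with DESeq2 and 5 without the 4 muscle-rich libraries (fewer libraries), and 9 to 16 without any 1 library. For the other pairing the 0 became 126 with DESeq2, 5 with approximate reads and 0 to 9 without any 1 library (9 without ZT2 replicate 3, 3 without ZT8 replicate 3).

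Over all genes, same-numbered libraries did not deviate together (r from -0.065 to 0.078 over 18 pairs, with 4 of 12 libraries closest to their own number). Such an r cannot show a pairing that moves few genes, and that was not tested. With the replicate block the counts were 1, 8 and 0.

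Values near 0 changed sign. Without the 4 muscle-rich libraries the log2 fold change was 0.041 for Per1, 0.0020 for Per3, 0.0034 for Bhlhe40 and -0.039 for Bhlhe41. With later or earlier as the only factor it was -9.09e-05 for Nfil3 and 0.0050 for Bhlhe40, and with the muscle covariate 0.00072 for Scn10a. Bhlhe41 stood at -0.000313 with DESeq2 size factors, -0.0056 with upper-quartile scaling, -0.0038 with nuclear coding genes, -0.0010 unfiltered, -0.0012 with the stricter filter, -0.00019 with DESeq2 and -0.0013 with approximate reads. Leaving out 1 library gave -0.082 to 0.0084 for Arntl, -0.114 to 0.065 for Per1, -0.037 to 0.0025 for Tef, -0.0159 to 0.1002 for Hlf, -0.017 to 0.040 for Nfil3, -0.039 to 0.023 for Bhlhe40, -0.051 to 0.034 for Bhlhe41, -0.042 to 0.036 for Scn10a and -0.036 to 0.037 for Tac1. The other genes named kept their sign in each of these fits. Of the 141 sensory genes, 22 had a 95% interval reaching beyond 0.5 on the log2 scale, 16 of them below 10 CPM and 6 at 10 CPM or more; the part of depth was not tested.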
